A study of Rattus norvegicus with 12 samples.

Results

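The genes described here are 10 that encode the chaperones and enzymes with which the endoplasmic reticulum (ER) folds secreted proteins, and procollagen in particular: Serpinh1, P4hb, P4ha1, Plod1, Hspa5, Hsp90b1, Calr, Canx, Pdia3 and Pdia4. They were chosen by name, as every probe set that the annotation of the array assigns to one of these genes alone, which gave 14 of 15923 probe sets and 10 of 10411 named genes. The lungs came from Wistar rats aged 12 weeks, and whole-organ RNA was read on Affymetrix RAE 230A arrays with 1 animal per array and no pooling. The 5 control rats had received buffer into the peritoneum at 8 weeks of age. The 7 diabetic rats had received streptozotocin, which destroys pancreatic beta cells, at the same age and had been diabetic for 4 weeks. The study asked how this model of type 1 diabetes alters gene expression in the lung.

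Procollagen chains enter the ER, where prolyl 4-hydroxylase (the P4ha and P4hb subunits) and lysyl hydroxylases such as Plod1 modify them, and where HSP47, the product of Serpinh1, binds the finished triple helix until it leaves for the Golgi. The other members serve most secreted proteins: BiP (Hspa5) and GRP94 (Hsp90b1) hold unfolded chains, calreticulin (Calr) and calnexin (Canx) retain glycoproteins, and the protein disulfide isomerases Pdia3 and Pdia4 form and rearrange disulfide bonds. When unfolded proteins accumulate, the transcription factors ATF6 and XBP1 raise several of these genes through the ER stress element (ERSE) of their promoters, whereas Serpinh1 is known as a heat shock gene, with a heat shock element (HSE) bound by HSF1.

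Promoters of 9 of the 10 genes, taken from RefSeq (build GRCr8) from 250 bases before to 50 after the start, were searched on both strands for these elements, and the stretches that held one are shown because Serpinh1 held one element and 4 of the general chaperones the other. The element is in capitals within 20 flanking bases of lower case, cut at the end of the promoter for Calr, and all are read in the direction of the gene. Hsp90b1 held 2 copies, and the run between them is included.
Serpinh1 (chr1:163062979-163063031, minus strand): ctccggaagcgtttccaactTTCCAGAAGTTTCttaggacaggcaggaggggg
Hspa5 (chr3:38452953-38453011, plus strand): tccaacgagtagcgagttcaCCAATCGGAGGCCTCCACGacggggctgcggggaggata
Hsp90b1 (chr7:23012327-23012489, minus strand): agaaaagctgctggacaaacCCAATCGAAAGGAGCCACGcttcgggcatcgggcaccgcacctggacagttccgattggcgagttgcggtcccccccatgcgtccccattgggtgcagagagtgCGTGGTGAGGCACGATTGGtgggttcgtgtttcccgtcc
Calr (chr19:40213117-40213173, plus strand): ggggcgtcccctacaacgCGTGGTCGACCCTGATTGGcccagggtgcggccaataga
Canx (chr10:35158049-35158107, minus strand): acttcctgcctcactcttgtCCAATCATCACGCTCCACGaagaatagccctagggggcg
The ERSE was searched as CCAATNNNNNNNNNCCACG, which contains the CCAAT box. It stood in 4 of the 9 member promoters, those of Hspa5, Hsp90b1, Calr and Canx, and in 22 of 33469 rat promoters of this length (0.066%). In Calr and in the copy of Hsp90b1 nearer the start it lay on the opposite strand. The HSE, searched as GAANNTTCNNGAA or TTCNNGAANNTTC, stood in 1 member promoter, that of Serpinh1, and in 267 of the 33469 (0.798%). The shorter element ATTGGNCCACG stood in none of the 9 and in 17 of the 33469. Pdia3 had no entry in the promoter table. A match of letters is a description and not evidence of binding in these lungs.

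Values are MAS 5.0 signals, the linear brightness of a probe set after the authors' scaling, and all changes are differences of log2 signal, diabetic minus control. Each array correlated with the others of its group at a mean r of 0.947 to 0.962. The 3' to 5' signal ratio of the GAPDH control probe sets, a gauge of RNA integrity and labelling, was 1.32 ± 0.0778 in the 5 control and 1.15 ± 0.0710 in the 7 diabetic arrays (SD, exact permutation p = 0.00505, two-sided). Diabetic animal 6, at 1.30, was the diabetic array within the control range. The corresponding ratio of beta-actin was 2.06 ± 0.437 and 2.08 ± 0.372 (SD, n = 5 and 7, exact permutation p = 0.920).

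None of the 10 genes passed an adjusted p of 0.05 (limma, Benjamini-Hochberg over the 9520 probe sets tested), a threshold that 0.168% of the probe sets passed. At an unadjusted p under 0.05, Serpinh1 and Pdia4 were lower in diabetic lung (2 of 10 genes) and Plod1 was higher (1 of 10). Of all probe sets tested, 16.4% reached that level, 8.68% lower and 7.75% higher, so that counts this small say little about the genes as a group. No member had groups that did not overlap, whereas 1.11% of all probe sets were lower and 0.924% higher without overlap. The median change of the 10 genes was -0.10, beside -0.01 over all probe sets tested, with 7 genes below 0 and 3 above on their brightest probe sets. This median went to -0.06 without diabetic animal 3 or without control animal 1, and to -0.03 with array weights. The signs of P4hb, Hsp90b1 and Canx reversed in some of the other fits, and the probe sets of Canx disagreed.

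**Figure D1:**
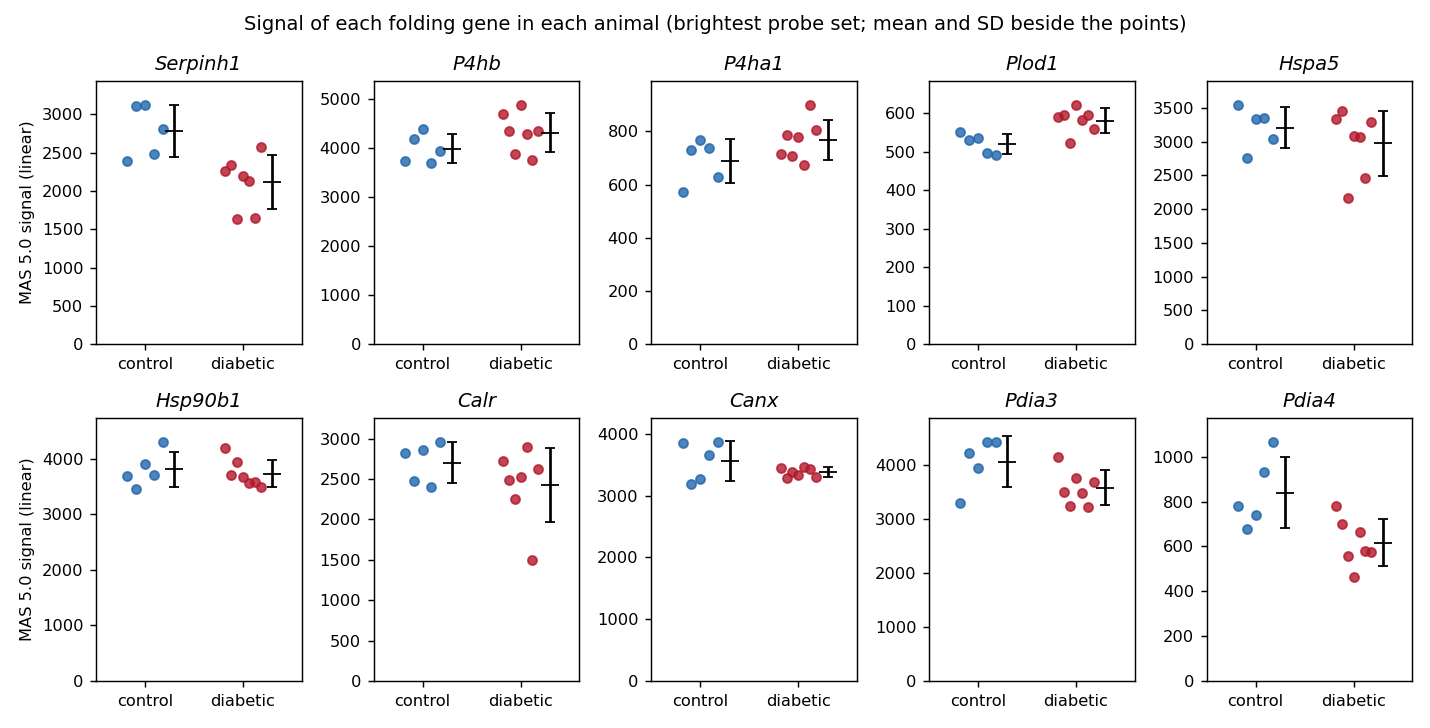
MAS 5.0 signal (linear, axes from 0) of the brightest probe set of each folding gene in the 5 control (blue) and 7 diabetic (red) rats. Each point is 1 animal, and the black bar is the mean with its SD. For Serpinh1, 6 of 7 diabetic rats lie below every control, and for Plod1 6 of 7 lie above every control.

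The collagen-specific chaperone Serpinh1 had signals of 2391, 3108, 3125, 2479 and 2809 in the control rats. In the diabetic rats its lowest, median and highest signals were 1639, 2203 and 2576. Diabetic animals 3 and 6 were the lowest, at 1639 and 1654, and 6 of the 7 diabetic rats lay below every control. The means were 2782 ± 342 (SD, n = 5) and 2116 ± 350 (SD, n = 7), and the fitted diabetic level was 0.756 times the control level (95% interval 0.635 to 0.899). The log2 change was -0.40 with a standard error of 0.12 (adjusted p = 0.121 by limma), and the exact permutation p for this gene alone was 0.0126. The suffix of this probe set on the array (_s_at) marks probes that can match more than 1 transcript. A dimmer probe set assigned to Serpinh1 read between 5.7 and 59.3 on the 12 arrays, below the mean signal of 170.04 needed to be tested, and its groups overlapped. In whole lung, fewer cells of a type and less RNA per cell cannot be told apart.

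The 3 members that modify procollagen had changes above 0 in this fit, though the intervals of P4hb and P4ha1 included no change. P4hb encodes protein disulfide isomerase itself, which is also the beta subunit of prolyl 4-hydroxylase, and it was the brightest member. Its control signals were 3732, 4180, 4383, 3701 and 3928, and its diabetic signals ran from 3761 through a median of 4353 to 4874. The groups overlapped, 2 diabetic rats lay above every control, and the diabetic level was 1.08 times the control level (95% interval 0.965 to 1.21, adjusted p = 0.493). P4ha1, the catalytic alpha subunit of the same enzyme, averaged 688 ± 82.7 in the 5 control rats and 767 ± 75.7 in the 7 diabetic rats (SD). This ratio of 1.12 also had an interval that included 1 (0.974 to 1.28, adjusted p = 0.407), and without control animal 1 its log2 change went from 0.16 to 0.10.

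Plod1, which hydroxylates collagen lysines so that cross-links can form, was tightly measured. Its signals were 551, 530, 535, 496 and 492 in the control rats and had a lowest value of 523, a median of 590 and a highest value of 622 in the diabetic rats. Diabetic animal 3 was the exception that lay among the controls. The ratio was 1.12 (95% interval 1.01 to 1.24), the log2 change 0.16 with a standard error of 0.07 (adjusted p = 0.278), and the exact permutation p for the gene alone was 0.00884. The unadjusted limma p was over 0.05 in 8 of the 12 refits that left out 1 animal, so the count of higher genes ran from 0 to 1.

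**Figure D2:**
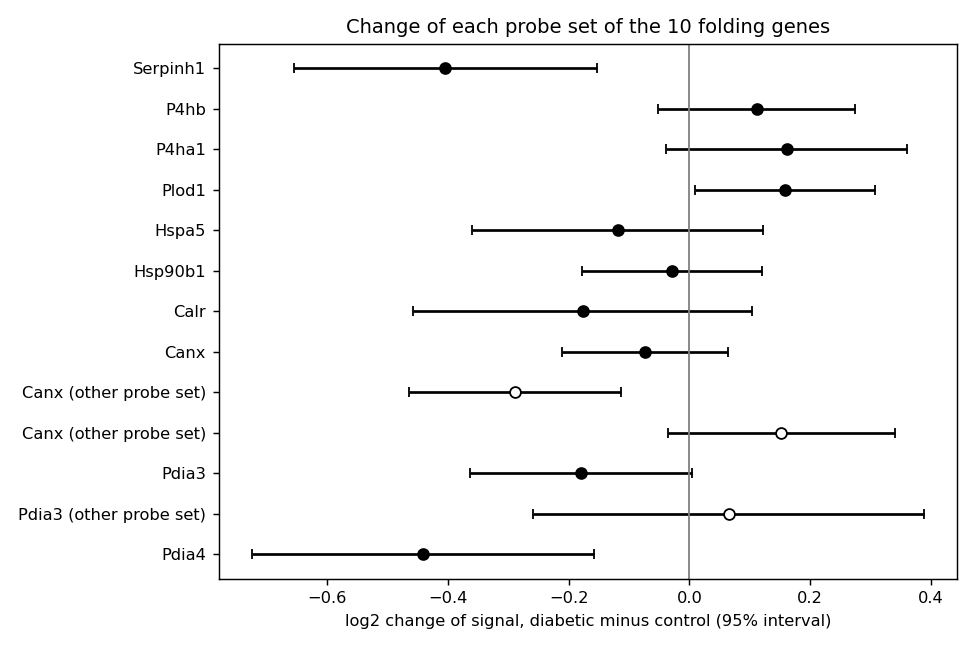
Change of each tested probe set of the folding genes as log2 signal, diabetic minus control (points), with its 95% interval from limma (bars). Filled points are the brightest probe set of a gene and open points its other probe sets, and the intervals of Serpinh1, Pdia4 and 1 open point of Canx lie wholly below 0.

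Pdia4, a disulfide isomerase that works in complexes with BiP, had the lowest ratio of the 10 genes. Control signals were 780, 676, 741, 931 and 1067, and the lowest, median and highest diabetic signals were 466, 579 and 781. Of the 7 diabetic rats, 5 lay below every control, while animals 1 and 2 lay within the control range. The diabetic level was 0.736 times the control level (95% interval 0.605 to 0.896), with a log2 change of -0.44 and a standard error of 0.13 (adjusted p = 0.130), and the exact permutation p was 0.0152. Its unadjusted limma p was over 0.05 in both fits with the 3' to 5' ratio of GAPDH as a covariate, and under it in every other limma fit run. Pdia3 (ERp57), the isomerase that works with calreticulin and calnexin on glycoproteins, averaged 4060 ± 469 in the 5 control rats and 3577 ± 325 in the 7 diabetic rats (SD). Its ratio was 0.883 (95% interval 0.777 to 1.00, adjusted p = 0.317). A dim second probe set of Pdia3, at a mean signal of 194 in control and 203 in diabetic lung, had a log2 change of 0.06 (adjusted p = 0.864).

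For the 2 general chaperones that are the classical products of ER stress, the interval of the ratio included no change. Hspa5 had control signals of 3541, 2758, 3333, 3350 and 3039, and diabetic signals with a lowest value of 2159, a median of 3086 and a highest value of 3446. Diabetic animals 3 and 6, at 2159 and 2462, were below every control, as they were for Serpinh1, and the other 5 diabetic rats lay within the control range. The ratio was 0.921 (95% interval 0.779 to 1.09, adjusted p = 0.637), and without animal 3 the log2 change went from -0.12 to -0.04. With the 3' to 5' ratio of GAPDH as a covariate the log2 change of Hspa5 was -0.33 (adjusted p = 0.319 by limma). Hsp90b1 averaged 3811 ± 319 in the 5 control rats and 3732 ± 249 in the 7 diabetic rats (SD). At 0.980 (95% interval 0.884 to 1.09, adjusted p = 0.870) this was the ratio nearest to 1 among the 10 genes.

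The lectin chaperones gave less uniform values. Calr had control signals of 2825, 2478, 2857, 2402 and 2964, and diabetic signals from 1503 through a median of 2528 to 2898. The lowest value, 1503, belonged to diabetic animal 6 and lay far under the next, 2252 in animal 3. The ratio over all animals was 0.885 (95% interval 0.728 to 1.08, adjusted p = 0.536), and without animal 6 the log2 change went from -0.18 to -0.07. Canx was read by 3 probe sets that disagreed. The brightest gave a ratio of 0.950 (95% interval 0.864 to 1.05, adjusted p = 0.610), the next 1.11 (0.975 to 1.27, adjusted p = 0.405) and the dimmest 0.818 (0.724 to 0.925, adjusted p = 0.116). No direction is therefore given for Canx. The promoters of Hspa5, Hsp90b1, Calr and Canx held the ERSE. In the fit without a covariate, none of these 4 reached an unadjusted p under 0.05 on its brightest probe set. The dimmest Canx probe set, however, had an exact permutation p of 0.00758. With the 3' to 5' ratio of GAPDH as a covariate, Calr passed the adjusted threshold at -0.70. Serpinh1, whose promoter held the HSE, had -0.40. Among genes whose promoters held neither element, Pdia4 had -0.44, while P4hb had 0.11, P4ha1 0.16 and Plod1 0.16. Whether the elements relate to these changes was not tested.

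The 3' to 5' ratio of GAPDH moved with the comparison. With it as a covariate, Serpinh1 passed the threshold at a log2 change of -0.81 (adjusted p = 0.0117) and Calr at -0.70 (adjusted p = 0.0152), P4hb went to -0.12, and 288 probe sets in all were called. Pdia4 stayed at -0.44 in that fit but with a larger standard error of 0.22, and it was no longer lower at an unadjusted p under 0.05 (adjusted p = 0.294). With diabetic animal 6 also left out, a fit chosen after seeing the data, no probe set was called, Serpinh1 had -0.87 (adjusted p = 0.405), Calr -0.40 (adjusted p = 0.565) and Pdia4 -0.31 (adjusted p = 0.854). Serpinh1 therefore kept its sign, while its size and its call moved with the handling of RNA quality. What part RNA quality had in its value was not tested.

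Other genes of the pathway were read from lists of 34 collagen maturation, 45 further ER folding, 34 translocon and N-glycosylation and 39 ER stress and ER-associated degradation (ERAD) genes. No gene of these lists passed an adjusted p of 0.05 by limma. At an unadjusted p under 0.05, 4 of 18 tested collagen maturation genes were lower (22.2%) and 1 was higher (5.56%), beside 8.68% and 7.75% of all probe sets, with a median change of -0.15 over the list. The lower genes were Ppib, a prolyl isomerase that assists the collagen triple helix (3586 ± 192 against 3028 ± 216, log2 change -0.25, adjusted p = 0.106), the cross-linking oxidase Loxl1 (-0.73), and the ER isomerases Fkbp9 (-0.28) and Fkbp10 (-0.26). The groups of Ppib did not overlap. Mia2, which helps load large cargo at ER exit sites, was higher (0.31), and Pcolce, the enhancer of procollagen C-proteinase, had -0.54 (adjusted p = 0.333).

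Among 39 tested ER folding genes, 4 were lower (10.3%) and 3 higher (7.69%) at that level, with a median of -0.11. These shares are close to those of all probe sets, 8.68% and 7.75%, and the genes below are named by rank of p and not as changed genes. Ppib belongs to this list too, beside the lower Pdia6 (-0.19), an isomerase, Creld2 (-0.26) and the BiP co-chaperone Dnajc1 (-0.26). The higher genes were Dnajb9, a BiP co-chaperone that directs misfolded proteins to degradation (631 ± 135 against 839 ± 57.4, log2 change 0.44, adjusted p = 0.0984), the thioredoxin-related Tmx3 (0.36) and Txndc12 (0.20), the last named after its value was seen. Hyou1, the exchange factor of BiP, had 0.16 with a standard error of 0.24. In the machinery that takes chains into the ER and adds glycans, 4 of 31 genes were lower (12.9%) and 1 was higher (3.23%), beside 8.68% and 7.75% of all probe sets, with a median of -0.10. The lower genes were the oligosaccharyltransferase subunits Rpn2 (-0.25) and Ddost (-0.20), the signal peptidase subunit Spcs3 (-0.17) and the translocon-associated Ssr2 (-0.22). Stt3b, a catalytic subunit of oligosaccharyltransferase, was higher (0.23). Ostc, which also encodes an oligosaccharyltransferase subunit, had -0.24 (adjusted p = 0.310).

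The median change of the ER stress response genes lay near that of all probe sets (-0.01). Of 32 tested, 1 was lower and 1 higher at an unadjusted p under 0.05 (3.12% each, beside 8.68% and 7.75%), with a median of 0.01. The lower gene was Atf6b, a relative of the stress sensor ATF6 (252 ± 23.8 against 185 ± 29.2, log2 change -0.46, adjusted p = 0.0984), whose groups did not overlap, and the higher was Derl2, an ERAD channel component (0.27). Syvn1, the ERAD ubiquitin ligase, had 0.27, Vcp, which extracts ERAD substrates, -0.14, its cofactor Ufd1 -0.12 and the protease Mbtps2, which activates ATF6, 0.13, all at adjusted p values from 0.374 to 0.395. The transcription factors that mark the response had log2 changes of 0.02 for Xbp1 (adjusted p = 0.894), 0.10 for Atf4 (adjusted p = 0.600) and 0.13 for Ddit3 (adjusted p = 0.492). These are RNA levels, and whether the factors were active was not measured. Atf6 had no probe set assigned to it alone.

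**Figure D3:**
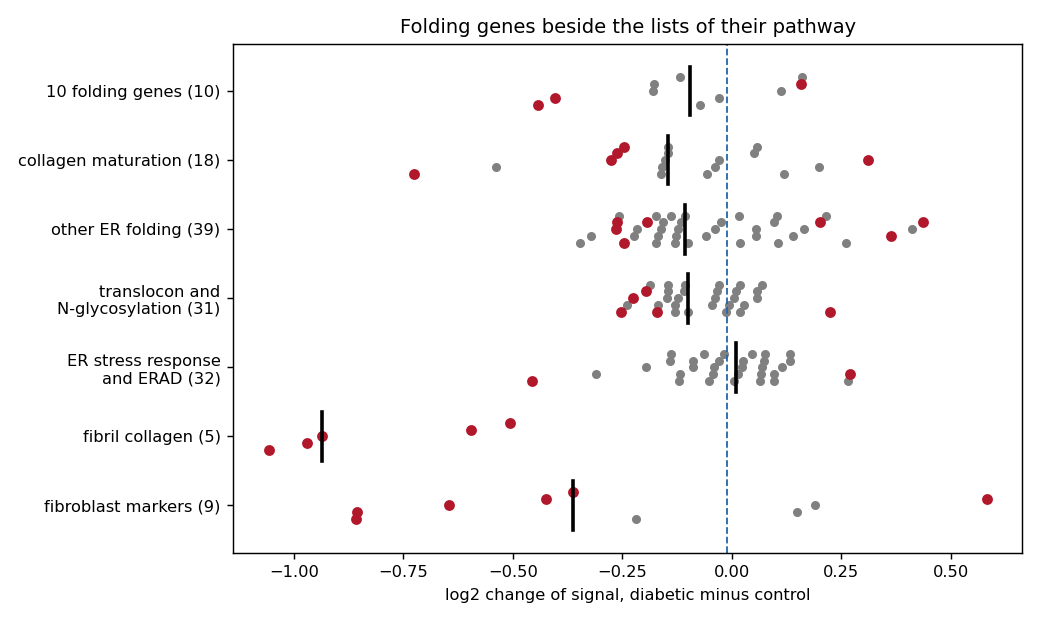
Log2 change of signal, diabetic minus control, of each tested gene (points) in the 10 folding genes, 4 pathway lists, the fibril collagens and the fibroblast markers, with the number tested in parentheses. Red points had an unadjusted limma p under 0.05, black bars are list medians, and the dashed line is the median of all probe sets tested (-0.01). The fibril collagens lie apart, with a median of -0.94, while the medians of the folding genes and the 4 pathway lists lie between -0.15 and 0.01.

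The collagens that these chaperones serve differed by more than the chaperones did. All 5 fibril collagen genes were lower at an unadjusted p under 0.05, with a median change of -0.94, though none passed the adjusted threshold (adjusted p from 0.0760 to 0.0926). Of all probe sets tested, 8.68% were lower and 7.75% higher at that unadjusted level. Col1a1 averaged 1759 ± 392 in the 5 control rats and 889 ± 316 in the 7 diabetic rats (SD). The corresponding means were 2494 ± 355 and 1390 ± 505 for Col1a2, and 8739 ± 392 and 4809 ± 1648 for Col3a1. The members' largest log2 changes, -0.44 for Pdia4 and -0.40 for Serpinh1, were thus smaller than the smallest of the 5 collagens, -0.51 for Col5a2. This difference in size was not tested. Of 9 tested markers of fibroblasts, the main collagen-making cells, 5 were lower at an unadjusted p under 0.05 (55.6%, beside 8.68% of all probe sets). The median over the list was -0.36. The lower markers were Fbln1, Mfap4, Lum, Dpt and Mfap5. At that level 1 (11.1%, beside 7.75% of all probe sets), the receptor Pdgfra, was higher (0.58). Tcf21 (0.15) and Dcn (0.19) were also above 0, at adjusted p values of 0.550 and 0.696 by limma, so the markers did not move as one. The summed signal of the 12 fibroblast markers was 18863 to 20261 in the control rats and 12916 to 19756 in the diabetic rats. Mfap4, the brightest, averaged 8714 and 5348 in the 2 groups and so weighs heavily in the sum, and Cd248 was the dimmest. No smooth muscle marker of 6 tested reached that level (median -0.01). What part the fibroblast content of the samples had in the value of Serpinh1 was not tested.

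Whether the members followed collagen from animal to animal was asked in the 7 diabetic rats, with collagen as the mean log2 signal of Col1a1, Col1a2 and Col3a1. Relative to the control mean this ran from -2.26 in diabetic animal 6 through a median of -0.80 to -0.40 in animal 5, and from -0.17 to 0.22 in the controls. Of 10 members tested, Calr alone passed after adjustment over the 10: Pearson r was 0.976 (exact permutation p = 0.00198, adjusted p = 0.0198) and Spearman rho 0.964 (exact permutation p = 0.00278, adjusted p = 0.0278). The Spearman result did not hold under other scalings: rho was 0.857 (adjusted p = 0.238) with each array centred on its median and 0.929 (adjusted p = 0.0675) after quantile normalization, while Pearson r kept adjusted p values of 0.0476 and 0.00794. Without animals 5 and 6, the farthest from the median, r was 0.748 over the remaining 5. Leaving out 1 diabetic animal at a time kept r for Calr between 0.856 and 0.988 but took its adjusted p over 0.05 for 5 of the 7, to 0.250 without animal 6. With all 5 fibril collagens as the measure, r was 0.964 and the adjusted p 0.0615. Animal 6 also had the highest beta-actin 3' to 5' ratio, 2.85, and what part that had was not tested.

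For Serpinh1 the correlation with collagen was lower (r = 0.698, exact permutation p = 0.0712, adjusted p = 0.237), as it was for P4hb (r = 0.661, adjusted p = 0.239). Both values leaned on animal 6, without which r was 0.467 for Serpinh1 and 0.273 for P4hb. P4ha1 had r = -0.728 (adjusted p = 0.237), which became 0.415 without animals 5 and 6. Without animal 5 alone r was -0.656 and without animal 6 alone -0.195, so the value for P4ha1 leaned on animal 6 too. The other 6 members had r between -0.128 and 0.578 with adjusted p values from 0.344 to 0.908. A p that misses the threshold in 7 animals leaves relations of this size undecided.

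**Figure D4:**
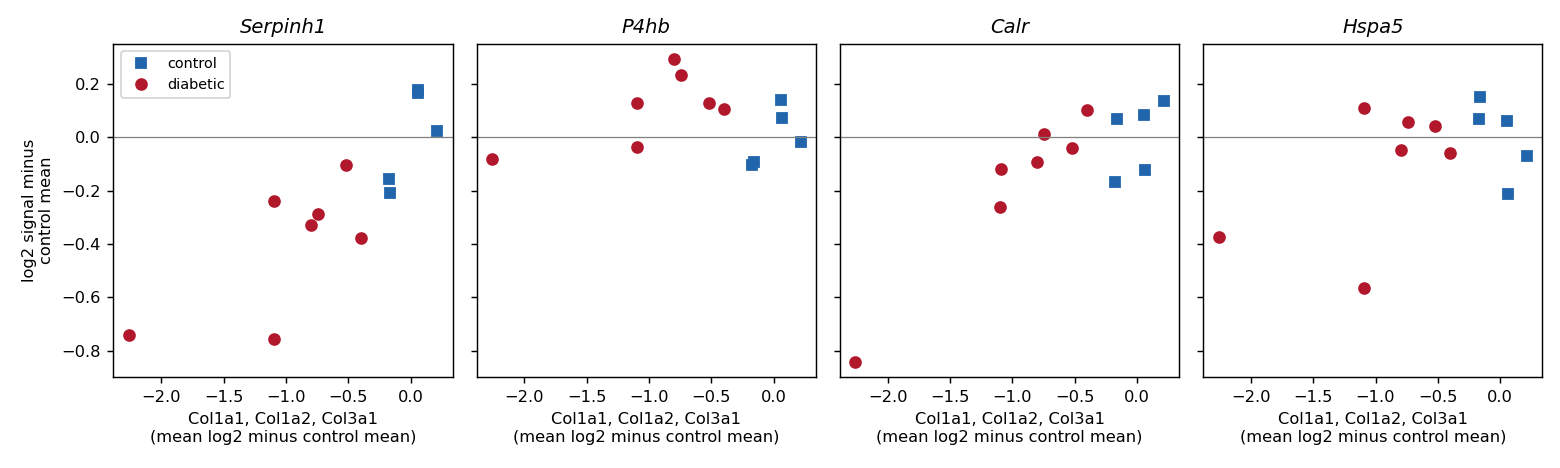
Log2 signal of Serpinh1, P4hb, Calr and Hspa5 (vertical) against the mean log2 signal of Col1a1, Col1a2 and Col3a1 (horizontal), both minus the control mean. Red circles are the 7 diabetic and blue squares the 5 control rats, and the leftmost red point is diabetic animal 6. Calr lies along a line in the diabetic rats (r = 0.976), while P4hb stays between -0.10 and 0.29 over both groups.

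Animals also varied within their groups, and the members varied partly together. Over the 12 arrays, after the group means had been removed, 30 of the 45 pairs of members correlated positively, with a median r of 0.16, beside 0.00 over all pairs of the 7036 genes tested. Arrays share scaling and RNA quality, so these values are descriptions. The pair most alike was Serpinh1 and P4hb (r = 0.81). In the fit without a covariate their changes with diabetes had opposite signs (-0.40 and 0.11), though the interval of P4hb included no change. With the 3' to 5' ratio of GAPDH as a covariate P4hb had -0.12. Calr correlated with P4hb at 0.61 and with Serpinh1 at 0.60, and Hsp90b1 with Pdia4 at 0.60. P4ha1 went against the lectins, at -0.62 with both Calr and Canx. Among 7035 other genes, those most like Serpinh1 by this measure were Tcf7 (0.93), Tubb2a (0.89), Ttc9 (0.88), Comtd1 (0.88) and Pitpna (0.87), with log2 changes from -0.02 to 0.26. Those most like Hspa5 were Cand1 (0.90), Srd5a3 (0.89), Cd3g (0.89), Brms1l (0.87) and Cinp (0.87), with log2 changes from -0.58 (Brms1l) to 0.57 (Cinp). As the highest of 7035 values over 12 arrays, correlations of this size can arise by selection alone.

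**Figure D5:**
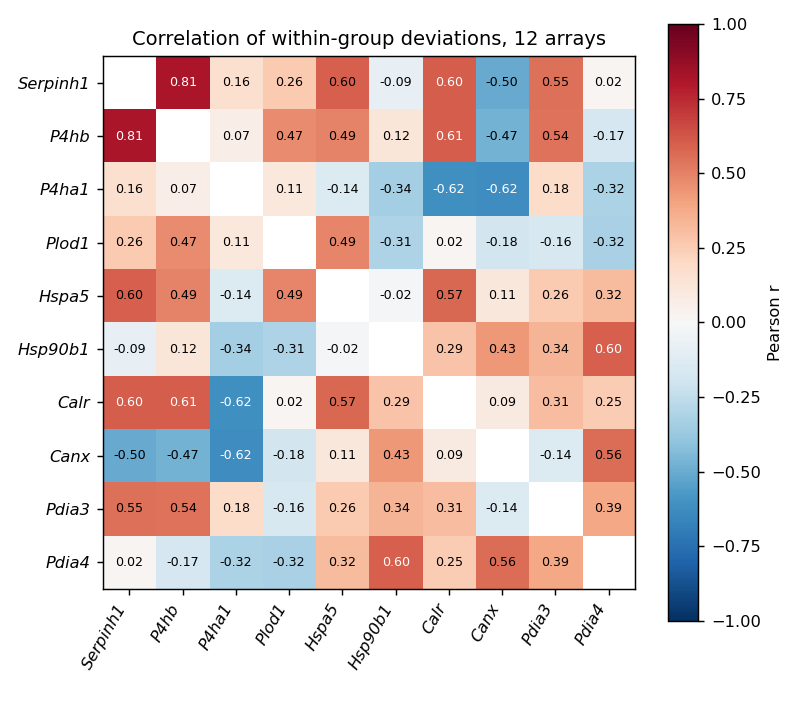
Pearson r between the folding genes over the 12 arrays, computed on log2 signals after subtracting each group's mean (colour scale from -1 to 1, value in each cell). The darkest cell is Serpinh1 with P4hb at 0.81, and the lowest is P4ha1 with Canx at -0.62.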

How the data were processed

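RNA of 12 whole lungs (5 control, 7 diabetic) was hybridised to RAE 230A arrays. The authors deposited MAS 5.0 signal intensity, scaled on each array, and these values were used as deposited. The array annotation was brought to current RefSeq symbols by Entrez number. Here, 57 control probe sets were set aside, 1 value at or below 0 was set to 0.1, signals were taken to log2, the dimmest 40% by mean were left out, and the other 9520 were fitted with limma 3.58.1 in R 4.3.3 (eBayes with trend), with Benjamini-Hochberg adjustment over all of them. For each gene the probe set of highest mean signal stood for it. The study's own test, Bayesian analysis of microarrays, was not run. Permutation tests enumerated all 792 splits of the animals, with 0.00126 as the smallest p they can give, or all pairings. The fits were tested on simulated data. Members and gene lists were chosen with earlier results of these data known. Named genes were all members, and in each pathway list the 6 of smallest p and preset regulators. Col5a2 and the fibroblast markers other than the brightest and the dimmest were named outside this rule, with their values known. Alternatives covered scaling, filter, pseudocount, variance model, array weights, permutation, GAPDH covariate, replicate block, probe set choice and leaving out each animal. The number of arrays limits the precision. Promoter sequences and gene symbols came from RefSeq tables of build GRCr8, and no protein sequences were used here.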

Additional observations from a re-analysis of the deposited data

Results flagged for a closer look

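Within-group gaps were looked for in 26 groups (13 tested probe sets in control and diabetic rats), and 1 exceeded Dixon's 95% critical value, where chance flags about 1 group in 20. It was the dimmest of the 3 Canx probe sets, on which control animal 2 read 1311.4 and the other 4 control rats read 1529 to 1573, a gap of 0.832 of the group's range (critical value 0.710). Of the 7 diabetic rats, 6 read below 1311.4 on this probe set, which is the one that gave Canx a ratio of 0.818.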

How the results depend on the processing

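Of 240 recomputed member changes (24 settings), 233 kept their sign and their side of the adjusted threshold. Settings that altered only the filter, the variance model or the test left each log2 change as it was, so there the sign could not move. No member passed that threshold in 23 of the 24, and 2 to 3 members were lower at an unadjusted p under 0.05 in all of them, though not always the same ones: with the GAPDH covariate they were Serpinh1 and Calr, without Pdia4. The GAPDH covariate was the exception, with 2 members past the threshold, 0 higher at an unadjusted p under 0.05, a member median of -0.20 (main value -0.10) and P4hb at -0.12. With diabetic animal 6 also left out (chosen after seeing the data), 0 were higher, P4hb had -0.14 and Canx 0.0273. Leaving out 1 animal at a time gave a member median of -0.138 to -0.0592, 0 to 1 higher members, and 0 to 1 members related to collagen. Hsp90b1 then ran from -0.0631 to 0.0163, the positive value without control animal 5. With all 5 fibril collagens as the measure, 0 members were related to collagen. The causes of these shifts were not tested.

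The replicate numbers gave no pairing: deviations of same-numbered animals correlated at -0.12 to 0.04, and 1 of 5 controls correlated best with its own number. With the number as a block, 0 members were higher at an unadjusted p under 0.05 and Hsp90b1 had 0.0021. The number of animals, RNA quality, and for Canx and Pdia3 the disagreement of their probe sets all limit these values.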

Other observations

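A difference between 2 probe sets on one array does not depend on how arrays are scaled to each other. The log2 signal of P4hb minus that of Serpinh1, set to 0 at the control mean, ran from -0.10 to 0.12 in the 5 control rats and from 0.23 through a median of 0.52 to 0.72 in the 7 diabetic rats, without overlap. P4ha1 minus Serpinh1 ran from -0.14 to 0.27 and from 0.34 to 1.14, and Hsp90b1 minus Pdia4 from -0.21 to 0.20 and from 0.21 to 0.78. These were the 3 of 45 member pairs without overlap (6.67%), picked after their values were seen, beside 2.05% of the 24749130 pairs of tested genes.

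Of the remaining marker lists, type II cells had 1 of 7 tested genes higher and none lower at an unadjusted p under 0.05, type I cells 1 of 5 higher and 2 lower, endothelial cells 1 of 6 lower, macrophages 1 of 2 higher, and B and plasma cells 1 of 1 lower. Airway (3 tested), T cell (4) and neutrophil (2) markers had none, and no marker of striated muscle or adipocytes was bright enough to be tested. Over all probe sets tested, 8.68% were lower and 7.75% higher at that level. Only 2 of the 7 listed macrophage genes and 1 of the 8 B and plasma cell genes had a probe set of their own. Counts in lists this small say little about the cell types. Sftpc, the defining surfactant gene of type II cells, was at a mean signal of 24903.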
